A study of Mus musculus with 6 samples.

Results

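Enzymes that write, erase and read histone marks and the ATP-driven machines that move nucleosomes were followed between leukemic stem cells and bulk leukemic cells of a humanized mouse model of acute myeloid leukemia (AML). The set was drawn by gene symbol, and it was chosen with earlier results of these data known. It took in lysine demethylases (KDM), KMT2 and SETD methyltransferases, EHMT and SUV genes, and PRMT arginine methyltransferases. KAT acetyltransferases with EP300 and CREBBP, HDAC and SIRT deacetylases, BRD readers, CHD, SMARC and ARID remodelers, and DOT1L completed it. Of the 13892 rows of the deposited table, 110 matched. For 1 of them no value is given, because its level can identify a person. The other 109 comprised 105 coding genes in 15 role classes and 4 antisense, intronic or pseudogene symbols. Only KDM8 was too low to be tested, which left 108.

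Both populations came from the bone marrow of NSG mice, an immunodeficient strain without mature T, B and NK cells of its own, that carried human hematopoietic cells transduced with NPM1c, the cytoplasmic mutant of nucleophosmin, and had developed AML. LSC were sorted as GFP+, CD33+ and CD123+. Bulk leukemic cells were sorted as GFP+ and CD33+, with no statement on CD123, so the bulk gate does not exclude CD123+ cells. GFP served as the stand-in for NPM1c, CD33 is found on myeloid cells, and CD123 is a subunit of the interleukin 3 receptor. There were 3 mice, each from its own transduction of stem cells, and 1 library per population and mouse. The mice were moribund at harvest, and all 6 libraries carry NPM1c, so no comparison with cells lacking it is possible. The sources used here give neither the promoter that drove NPM1c nor the age of the mice. The p-values below measure the spread between these libraries, 1 per mouse and population. Those from fits with the mouse as a block measure the spread of the differences within mice. In the limma fits the variance of each gene or ratio is drawn toward that of the others. Limma p-values therefore do not rest on a gene's own spread alone. ARID5B differed by -0.87, -1.55 and -3.25 in mice 1, 2 and 3 with a blocked SE of 0.45. KDM1A differed by -0.75, -0.83 and -0.59 with a blocked SE of 0.21.

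Chromatin regulators act on nucleosomes in large complexes. Methyltransferases of the KMT2 (MLL) and SETD1 group mark active promoters and enhancers on H3K4 (lysine 4 of histone H3), while EHMT, SUV39H and SETDB enzymes mark silent chromatin on H3K9. Acetyltransferases open chromatin, deacetylases reverse this, bromodomain proteins read acetylated histones, and SWI/SNF, CHD and ISWI ATPases slide, evict or space nucleosomes. Leukemias with mutant NPM1 keep HOX and MEIS1 genes active through KMT2A with its partner menin and through DOT1L, and KDM1A and the deacetylases are drug targets in AML. Sequences of the human genes were not used here.

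Reads per library totalled 10669560 to 14933494, and the MTRNR2L genes, which resemble mitochondrial ribosomal RNA, took 27.2% to 70.0% of them. Levels are CPM, reads scaled to a common normalized library size. That size was smallest in bulk of mouse 1, where 3 reads equalled 0.514 CPM, against 0.19 to 0.254 CPM elsewhere. The gate was visible in IL3RA, which encodes CD123, at 139.5, 48.0 and 135 CPM in LSC against 1.56, 2.14 and 2.39 CPM in bulk of mice 1, 2 and 3. CD33, part of both gates, was low, at 6.82, 8.07 and 1.19 CPM in LSC and 4.47, 8.23 and 13.1 CPM in bulk (limma adjusted p = 0.512, blocked 0.391). NPM1, the gene transduced in mutant form, had 516, 323 and 417 CPM in LSC and 911, 733 and 788 CPM in bulk. Its log2 change was -0.97 (limma adjusted p = 0.0879, blocked 0.00886). Other cell programs moved with the populations. Of 12 plasmacytoid dendritic cell markers 11 rose in LSC, and 12 with the mouse as a block. Their summed level was 1615 to 2879.6 CPM in LSC and 121 to 317 CPM in bulk. That list and its sum include IL3RA, whose rise follows from the gate and is no separate observation. Among 20 listed G2 and M phase genes there were 8 that fell, and 16 with the block, with sums of 1137 to 1831 CPM in LSC and 4310.1 to 8227 CPM in bulk. Summed erythroid markers stood at 63.9 to 267 CPM in LSC and 222 to 1017 CPM in bulk, and 3 of 11 fell, or 10 with the block. Granule markers summed to 943 to 3366 CPM in LSC and 4173 to 8151 CPM in bulk, with none of 12 past the threshold without the block and 8 lower with it. B lineage markers reached 1379.7 CPM in bulk of mouse 3 alone, against 155 to 232 CPM in LSC and 223 to 289.9 CPM in the other 2 bulk libraries, and 2 of 11 tested fell, while with the block 6 fell and 1 rose. Of 7 T and NK cell markers none passed in either fit, and 1 of 10 monocyte markers fell, or 2 with the block. Of all these markers, none that the table lists was without a read in every library of a population. The part of these programs in the results below was not tested.

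No chromatin gene passed the comparison of LSC with bulk when the pairing by mouse was left out. The count was 0 of 108 higher and 0 of 108 lower by limma at an adjusted p of 0.05 over 13755 genes, of which 4.04% passed in either direction. At an unadjusted p under 0.05 there were 5 members higher (4.63%, against 10.2% of all genes) and 13 lower (12%, against 10.1%). Voom on reads recovered from the table called 0 in each direction. SMARCA4, CHD7 and CHD1 came closest, with adjusted p of 0.05001, 0.05244 and 0.05869. With the mouse as a block, 4 members rose and 11 fell in LSC, or 13.9% of the members against 16.0% of all genes tested. By direction the background was 8.25% higher and 7.71% lower, and the members stood at 3.7% and 10.2%. The 11 that fell were CHD7, SMARCA4, ARID5B, CHD1, SMARCC1, SMARCC2, ARID1A, CHD4, HDAC7, KAT6B and KDM1A. PRMT7, KDM2B, KDM7A and the antisense transcript KDM4A-AS1 rose. These calls depended on which mice entered the fit. Of the 15, 3 stayed past the threshold in the blocked fit without mouse 1 (CHD7, SMARCA4 and ARID5B), 2 without mouse 2 (CHD7 and CHD1) and 15 without mouse 3. Calls over all genes shifted with the mice too. They took 5.31% of genes without mouse 1, 5.38% without mouse 2 and 24.1% without mouse 3, against 16.0% with all mice.

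As a set the members sat below the middle of all genes. Their median log2 change was -0.29, against 0.00 over all genes tested, and it was -0.12, -0.22 and -0.35 in mice 1, 2 and 3. Negative changes belonged to 70 of 108 members (64.8%) and to 50.2% of all genes. The size of the changes did not stand out, with a median of 0.55 in absolute log2 units among members and 0.57 among all genes. The populations did not overlap for 33 members (30.6%, against 25.2% of all genes). LSC libraries all lay below bulk libraries for 21 members (19.4%, against 11.9% of all genes) and all above for 12 (11.1%, against 13.2%). A lower value in each of the 3 mice was found for 48 members (44.4%, against 25.8%), and a higher value in each for 22 (20.4%, against 27.3%). No test was made of these shares. In bulk-sorted RNA, fewer cells of a kind and less RNA per cell cannot be told apart.

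**Figure D1:**
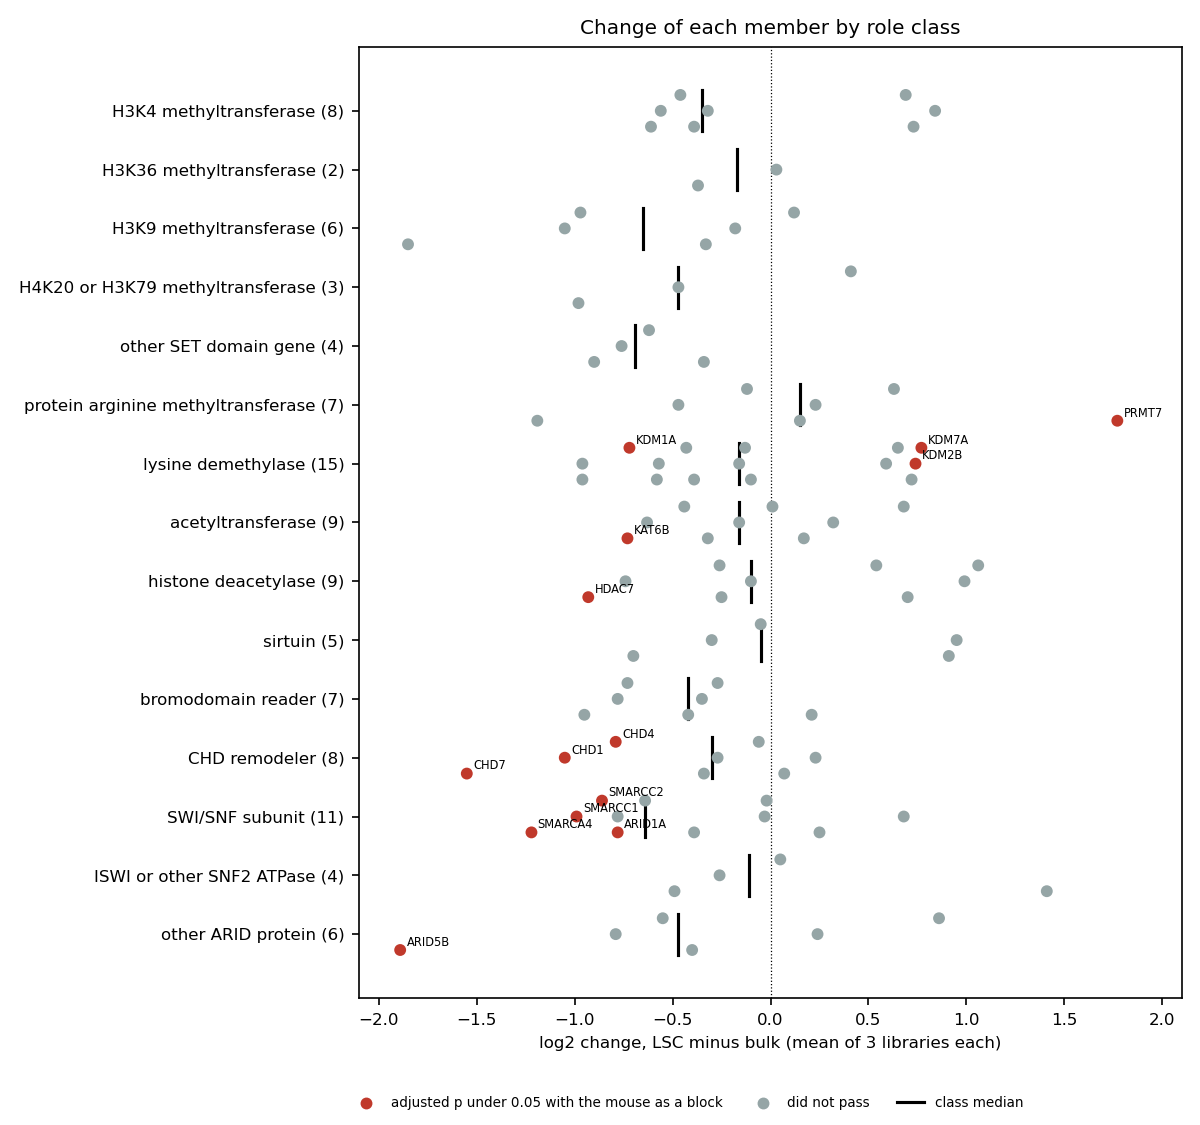
Log2 change, LSC minus bulk, of the 104 coding members tested, by role class with the number tested in brackets. Each point is 1 gene, red points passed with the mouse as a block, and black bars are class medians. The SWI/SNF and CHD classes, with 11 and 8 genes tested, hold 7 of the 11 members that fell. Of all genes 7.71% fell in that fit.

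**Figure D2:**
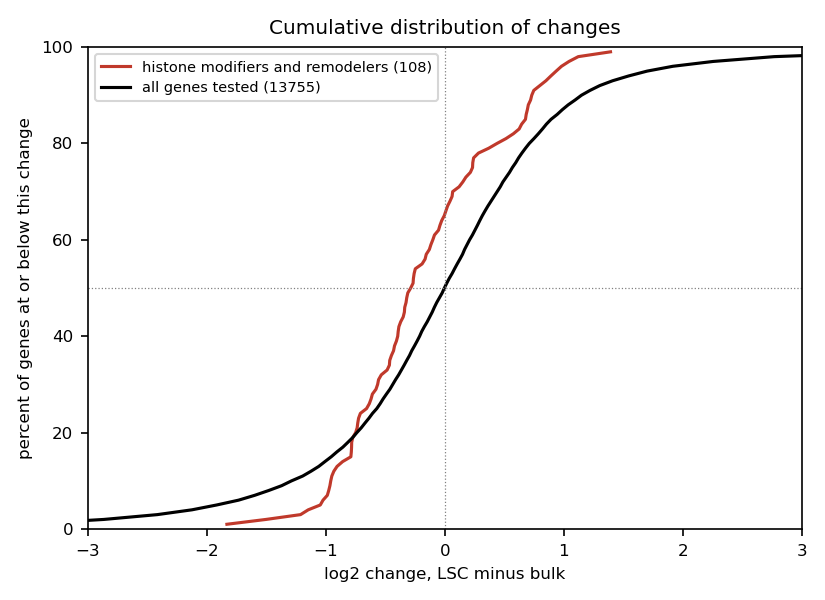
Cumulative distribution of log2 changes, LSC minus bulk, over the 108 members tested (red) and all 13755 genes (black), drawn from their percentiles. The members' curve crosses 50% at -0.29 and the curve of all genes at 0.00.

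Subunits of SWI/SNF, the remodeler that evicts and slides nucleosomes at promoters and enhancers, held the most calls by number. The 15 role classes differ in size, and with the block 7.71% of all genes fell. Of 11 tested, none passed without the block, while with it 4 fell and none rose. Changes were negative for 9 of 11, with a class median of -0.64. SMARCA4, the BRG1 ATPase, had 29.9, 36.3 and 26.8 CPM in LSC of mice 1, 2 and 3, against 60.3, 82.8 and 73.5 CPM in bulk. Every LSC library was below every bulk library. The log2 change was -1.22 (SE 0.29, n = 3 each), and limma's adjusted p was 0.05001 without and 0.00941 with the block. SMARCC1, the BAF155 scaffold subunit, had 282, 189 and 248 CPM in LSC and 511, 411 and 495 CPM in bulk, again without overlap. Its change was -0.99 (SE 0.27), with an adjusted p of 0.0777, and of 0.0082 with the block. SMARCC2, the related scaffold BAF170, had 66.8, 55.2 and 29.4 CPM in LSC and 123, 70.7 and 74.2 CPM in bulk. Its change of -0.86 was -0.51 without LSC of mouse 3, and it passed with the block alone (limma adjusted p = 0.0467). ARID1A, the DNA-binding subunit of the canonical complex and a frequent target of mutation in cancer, had 110, 118 and 119 CPM in LSC and 176, 174 and 259 CPM in bulk. The change was -0.78 (SE 0.27), and limma's adjusted p was 0.148, and 0.0326 with the block.

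The other SWI/SNF members of the set gave no call. Outside the set, the subunit SS18 and BCL11A, a protein reported in the complex, rose in both fits, as given with the partner genes. SMARCB1, the core subunit lost in rhabdoid tumors, was higher in every LSC library, at 13.4, 11.1 and 12.9 CPM against 7.72, 9.08 and 6.67 CPM in bulk. Its change of 0.68 (SE 0.36) did not pass in either limma fit (adjusted p = 0.323, and 0.191 with the block). SMARCA2, the alternative ATPase BRM, had a change of -0.78 and an adjusted p of 0.0519 with the block. SMARCE1 differed by -0.02, ARID2, of the polybromo form of the complex, by -0.03 and ARID1B by 0.25. SMARCD1 and SMARCD2 had changes of -0.64 and -0.39.

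CHD remodelers, helicases with chromodomains, came next by number of falls in a smaller class. Of 8 tested, 3 fell with the block, against 7.71% of all genes. None rose and none passed without it, and the class median was -0.30. CHD7, a nucleosome remodeler of enhancers whose loss causes CHARGE syndrome, had 48.9, 41.2 and 23.9 CPM in LSC of mice 1, 2 and 3 and 155, 93.0 and 83.8 CPM in bulk. The groups did not overlap, and the log2 change was -1.67, -1.17 and -1.81 in mice 1, 2 and 3. Its change was -1.55 (SE 0.37), with limma adjusted p of 0.0524 and, blocked, 0.00337. CHD1, which binds promoters marked on H3K4, stood at 130, 125 and 130.2 CPM in LSC and 292, 213 and 300.1 CPM in bulk. The 3 LSC libraries were nearly alike, and the change was -1.05 (SE 0.26, limma adjusted p = 0.0587, blocked 0.00929). CHD4, the ATPase of the NuRD deacetylase complex, had 146, 71.6 and 89.7 CPM in LSC and 217, 142 and 157 CPM in bulk. Here the populations overlapped, since LSC of mouse 1 exceeded bulk of mouse 2, although LSC was lower in each mouse. The change was -0.79 (SE 0.33, limma adjusted p = 0.227, blocked 0.0297). CHD3, its relative in NuRD, differed by -0.06, and 94.0% of its sum of squares lay between mice. CHD6 and CHD8 were lower in every LSC library, with changes of -0.34 and -0.27, and did not pass.

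**Figure D3:**
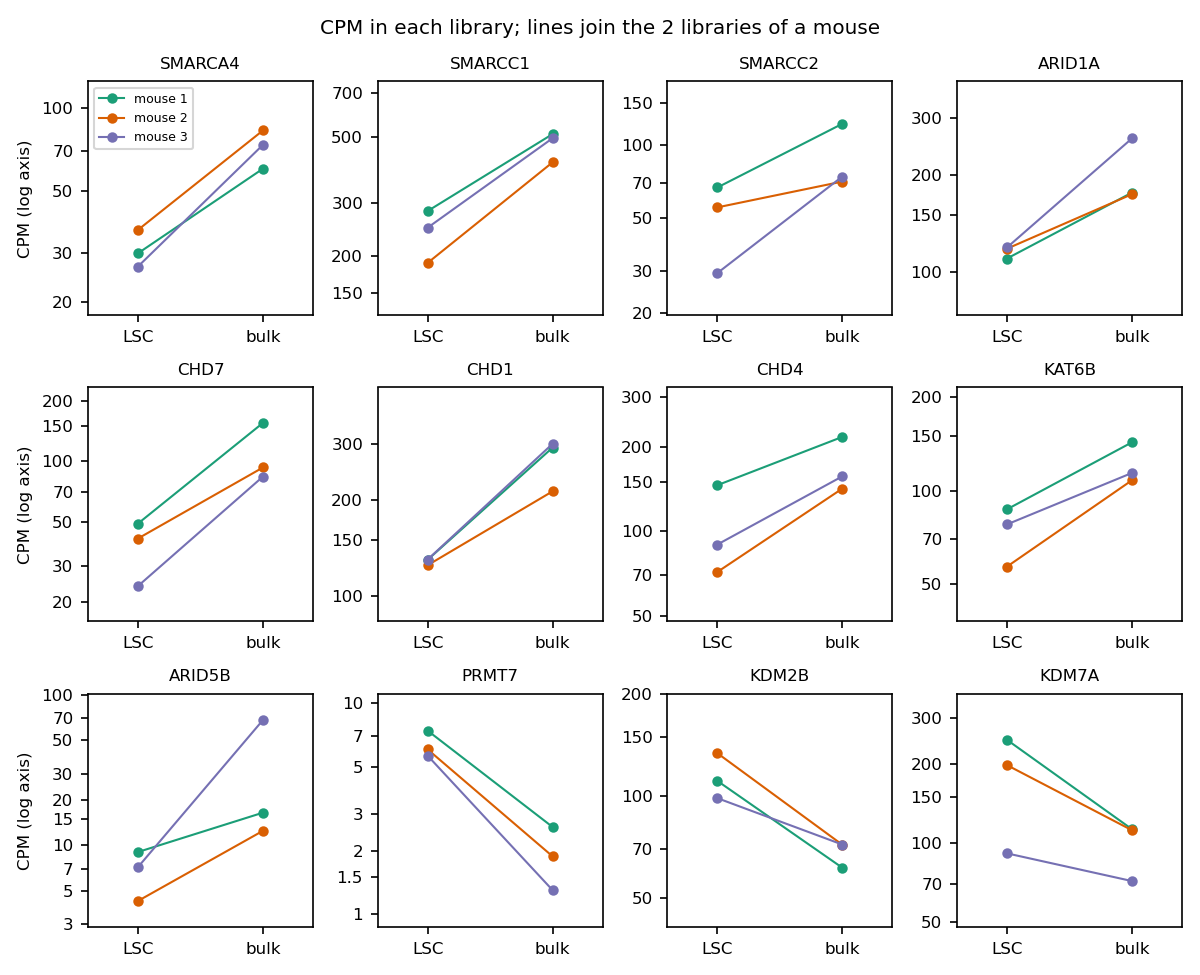
CPM in each library for 12 of the members that passed with the mouse as a block, LSC left and bulk right, with lines joining the 2 libraries of a mouse on log axes that differ in range. All 3 lines fall toward LSC in the first 9 panels, and all 3 rise toward LSC for PRMT7, KDM2B and KDM7A.

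Lysine demethylases moved in both directions. Of 15 tested, KDM2B and KDM7A rose and KDM1A fell with the block, none passed without it, and the class median was -0.16. KDM2B, an H3K36 demethylase that also brings a variant Polycomb repressive complex to unmethylated CpG islands, had 111, 134 and 98.7 CPM in LSC and 61.5, 71.9 and 72.0 CPM in bulk. All LSC libraries were above all bulk libraries. The change was 0.74 (SE 0.26, limma adjusted p = 0.164, blocked 0.0448). KDM7A, which removes methyl groups from H3K9 and H3K27, had 247, 198 and 91.5 CPM in LSC and 113, 112 and 71.8 CPM in bulk. Mouse 3 was lowest in both populations, so they overlapped. Its change of 0.77 (SE 0.40, limma adjusted p = 0.314, blocked 0.0447) was 0.48 without LSC of mouse 1. KDM1A, the H3K4 demethylase LSD1 inhibited by drugs tested in AML, had 44.9, 33.9 and 75.5 CPM in LSC and 75.5, 60.1 and 113 CPM in bulk. It was lower in 3 of 3 mice, with a change of -0.72 (95% interval -1.58 to 0.13, limma adjusted p = 0.321). The blocked limma adjusted p of 0.0493 lay just under the threshold.

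Several demethylases without a call also separated the populations. KDM5B, an H3K4 demethylase, had 19.7, 22.8 and 37.1 CPM in LSC and 57.0, 54.7 and 39.1 CPM in bulk, a change of -0.96 (SE 0.34, limma adjusted p = 0.164, blocked 0.0701). KDM1B, the second flavin-dependent demethylase, had 97.5, 59.5 and 93.0 CPM in LSC and 105, 115 and 332 CPM in bulk. Bulk of mouse 3 was the highest by far, and the change was -0.96 with it and -0.43 without it. The H3K9 or H3K36 demethylases KDM2A, KDM3A and KDM4B lay above bulk in all LSC libraries, with changes of 0.59, 0.65 and 0.72, and KDM6A and KDM6B, which erase the Polycomb mark H3K27me3, lay below, with -0.43 and -0.58. None of these passed. KDM8 was not tested, with 0.463, 0.971 and 4.25 CPM in LSC and 0.533, 0.528 and 1.04 CPM in bulk.

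H3K4 methyltransferases, the KMT2 and SETD1 group with SETD7, gave no call in either fit among 8 tested, with a class median of -0.35. KMT2A, the MLL gene itself, had 375, 156 and 249 CPM in LSC and 371, 271 and 464 CPM in bulk. Mouse 1 showed nearly equal levels, whereas LSC was lower in mice 2 and 3. The change was -0.56 (95% interval -1.38 to 0.27, limma adjusted p = 0.427). KMT2D, which marks enhancers, was lower in 3 of 3 mice, at 78.6, 119 and 71.3 CPM in LSC and 124, 176 and 108 CPM in bulk (change -0.61, SE 0.32, limma adjusted p = 0.314, blocked 0.0642). SETD1B went the other way, with 35.5, 15.6 and 14.8 CPM in LSC and 10.3, 14.9 and 9.30 CPM in bulk. LSC of mouse 1 was the highest, and its change of 0.84 was 0.43 without that library. KMT2B and SETD7 were also higher in 3 of 3 mice, by 0.69 and 0.73, without a call.

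H3K9 methyltransferases had a class median of -0.65 and no call among 6. EHMT1, the GLP partner in the main dimethylating enzyme, had 9.77, 8.01 and 7.24 CPM in LSC and 16.1, 17.6 and 15.1 CPM in bulk. These did not overlap, and the change was -0.97 (SE 0.35, limma adjusted p = 0.16, blocked 0.0645). SETDB1, which silences retroelements, had 11.6, 11.9 and 4.83 CPM in LSC and 22.4, 19.3 and 13.6 CPM in bulk, a change of -1.05 (limma adjusted p = 0.234), and of -0.62 without LSC of mouse 3. SUV39H1 had the widest negative change of the class at -1.85, but few reads, with an SE of 1.2. Of the H3K36 class, SETD2 differed by -0.37 (limma adjusted p = 0.513), and SETD3, described first for that lysine and known since as an actin methyltransferase, by 0.03.

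DOT1L, the H3K79 methyltransferase, had 4.23, 9.97 and 5.27 CPM in LSC and 9.61, 21.8 and 8.21 CPM in bulk. Each mouse had less in LSC, yet mouse 2 was so high in both populations that they overlapped. The change was -0.98 (95% interval -2.15 to 0.18), with limma adjusted p of 0.322 and, blocked, 0.0835. Without bulk of mouse 2 it was -0.55. SUV420H1, which acts on H4K20, differed by 0.41 (limma adjusted p = 0.444). Of 4 further SET domain genes all had negative changes, among them SETD5 at -0.62, below bulk in every LSC library, and SETD6, which methylates the NF-kB subunit RelA, at -0.90. Neither passed (limma adjusted p = 0.231 and 0.323, blocked 0.0506 and 0.0778).

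Arginine methyltransferases had the only positive class median in the set, 0.15 over 7 genes, and 1 call. PRMT7, which monomethylates arginine, had 7.41, 6.04 and 5.64 CPM in LSC and 2.59, 1.88 and 1.30 CPM in bulk. It rested on at least 77 reads in each LSC library and 15 to 22 in the bulk libraries. The groups did not overlap, and the change of 1.77 (SE 0.52) gave limma adjusted p of 0.0953 and, blocked, 0.0377. PRMT3, which methylates a ribosomal protein, had 11.5, 7.44 and 3.37 CPM in LSC and 13.9, 15.0 and 16.4 CPM in bulk, with LSC of mouse 3 lowest. Its change of -1.19 (limma adjusted p = 0.214) was -0.70 without that library. PRMT5, a drug target, differed by -0.47 (limma adjusted p = 0.636).

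Of 9 acetyltransferases 1 fell with the block and none passed without it. KAT6B, the MORF enzyme of histone H3, had 87.1, 57.0 and 77.9 CPM in LSC and 143, 108 and 114 CPM in bulk. The groups did not overlap, and the change was -0.73 (SE 0.28, limma adjusted p = 0.192, blocked 0.0413). EP300 and CREBBP, the paired coactivators that acetylate enhancers, did not differ beyond their spread. EP300 had 550.4, 357 and 669 CPM in LSC and 411, 369 and 857 CPM in bulk, a change of 0.01 (95% interval -0.86 to 0.87). The same mouse was high or low in both populations, and 88.2% of its sum of squares lay between mice. CREBBP had 158, 118 and 119.8 CPM in LSC and 183, 135 and 177 CPM in bulk, a change of -0.32 (-0.93 to 0.29). KAT2A, the GCN5 enzyme of the SAGA complex, differed by 0.68 on few reads (limma adjusted p = 0.466).

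The deacetylases split by gene, with 1 call among 9. HDAC7, a class IIa corepressor of lymphoid and myeloid genes, fell with the block alone. It had 48.0, 13.6 and 19.0 CPM in LSC and 74.5, 34.7 and 33.1 CPM in bulk, with mouse 1 high in both populations. The change of -0.93 (limma adjusted p = 0.343, blocked 0.041) was -0.55 without LSC of mouse 2. HDAC4, of the same class, was lower in every LSC library, at 17.8, 14.5 and 24.5 CPM against 34.6, 26.4 and 32.3 CPM in bulk (change -0.74, limma adjusted p = 0.25). HDAC6, a cytoplasmic deacetylase of tubulin, was higher in every LSC library, at 10.4, 13.3 and 8.41 CPM against 6.18, 6.79 and 3.09 CPM in bulk (change 1.06, SE 0.46, limma adjusted p = 0.236). HDAC9, also of class IIa, was higher in 3 of 3 mice by 0.99 (limma adjusted p = 0.395, blocked 0.0518).

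Class I deacetylases, the catalytic subunits of the nuclear corepressors, gave no call. HDAC1 had 18.0, 16.2 and 14.9 CPM in LSC and 21.4, 21.6 and 16.0 CPM in bulk, a change of -0.26 (95% interval -0.98 to 0.47). HDAC2 had 83.5, 100.2 and 120.4 CPM in LSC and 103, 92.3 and 129.7 CPM in bulk, a change of -0.10 (-0.73 to 0.53). HDAC3, of the NCOR complex, was above bulk in every LSC library, at 20.1, 14.4 and 12.1 CPM against 9.61, 11.6 and 7.31 CPM (change 0.70, interval -0.16 to 1.56, limma adjusted p = 0.337). Of 5 sirtuins, NAD-dependent deacetylases, none passed. SIRT3, of mitochondria, had 12.3, 7.06 and 6.58 CPM in LSC and 4.13, 5.95 and 3.47 CPM in bulk (change 0.91, limma adjusted p = 0.302), and SIRT7, of the nucleolus, differed by 0.95 (0.37).

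Bromodomain readers gave no call among 7, and 6 of the 7 had negative changes. BRD3, a BET family protein, was below bulk in every LSC library, at 8.89, 4.77 and 7.60 CPM against 11.3, 13.6 and 10.7 CPM (change -0.78, limma adjusted p = 0.309). BRD7, of the polybromo SWI/SNF form, had a change of -0.73 (blocked limma adjusted p = 0.0613). It shares sequence with BRD7P3, so part of its reads could belong to that copy. BRD1, a scaffold of acetyltransferase complexes, differed by 0.21, with 91.5% of its sum of squares between mice.

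Among the remaining ATPases and ARID proteins ARID5B had the largest negative change of the coding members tested. ARID5B, a DNA-binding partner of the demethylase PHF2 and a risk gene for childhood lymphoblastic leukemia, had 9.03, 4.27 and 7.17 CPM in LSC and 16.5, 12.5 and 68.2 CPM in bulk. Bulk of mouse 3, the library highest in B lineage markers, was far above the rest, and the part of those cells was not tested. The change was -1.89 (SE 0.63, limma adjusted p = 0.138, blocked 0.0245) and -1.14 without that library. ARID4A, of the SIN3 corepressor, differed by -0.55 (limma adjusted p = 0.35). SMARCA1, the SNF2L ATPase of ISWI complexes, had 20.9, 5.54 and 9.79 CPM in LSC and 3.62, 2.65 and 6.29 CPM in bulk. It was higher in 3 of 3 mice by 1.41 (SE 0.58, limma adjusted p = 0.217, blocked 0.0677), and by 0.91 without LSC of mouse 1. SMARCA5, the other ISWI ATPase, differed by -0.49 (limma adjusted p = 0.47).

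Ratios of related genes within a library do not depend on how libraries are scaled, so 22 pairs of the set were compared in this way. The ratios are of CPM and not per length, so only their differences are read. In 7 of 22 pairs (31.8%) the populations did not overlap. The share of 25.2% over all genes tested is for levels of single genes and not for ratios. No share was computed over ratios of other genes, so the pairs have no like background. Each of the 7 had an exact permutation p of 0.1, the smallest that 3 against 3 can give (two-sided, adjusted p = 0.314 over the 22 pairs). No pair passed by limma without the block. The log2 ratio of ARID1A to ARID1B, alternative subunits of SWI/SNF, was 0.37, 0.78 and 0.24 in LSC and 1.4, 1.92 and 1.17 in bulk of mice 1, 2 and 3. It shifted by -1.03, -1.13 and -0.93 in mice 1, 2 and 3, the evenest shift of the 3 pairs that passed with the mouse as a block (limma adjusted p = 0.0479). SMARCA5 to SMARCA1 was 3.40, 4.71 and 4.81 in LSC and 6.14, 6.37 and 6.13 in bulk, a mean difference of -1.91 (blocked limma adjusted p = 0.0398). HDAC7 to HDAC9 overlapped, at -0.82, -1.01 and -2.12 in LSC and 1.52, 1.3 and -1.0 in bulk, but shifted by -2.34, -2.32 and -1.11 within mice (0.0398).

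HDAC4 to HDAC5 was also lower in every LSC library, with a difference of -1.28. KDM5A to KDM5B, KDM3A to KDM3B, CHD3 to CHD4 and BRD2 to BRD3 were higher in every LSC library, by 0.86, 0.78, 0.73 and 0.52. None of these 5 passed with the block (adjusted p = 0.0583 to 0.246, limma). Other pairs did not separate, among them SMARCA4 to SMARCA2 (-0.44), EP300 to CREBBP (0.33) and HDAC1 to HDAC2 (-0.16), each with an exact permutation p of 0.5 or more.

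**Figure D4:**
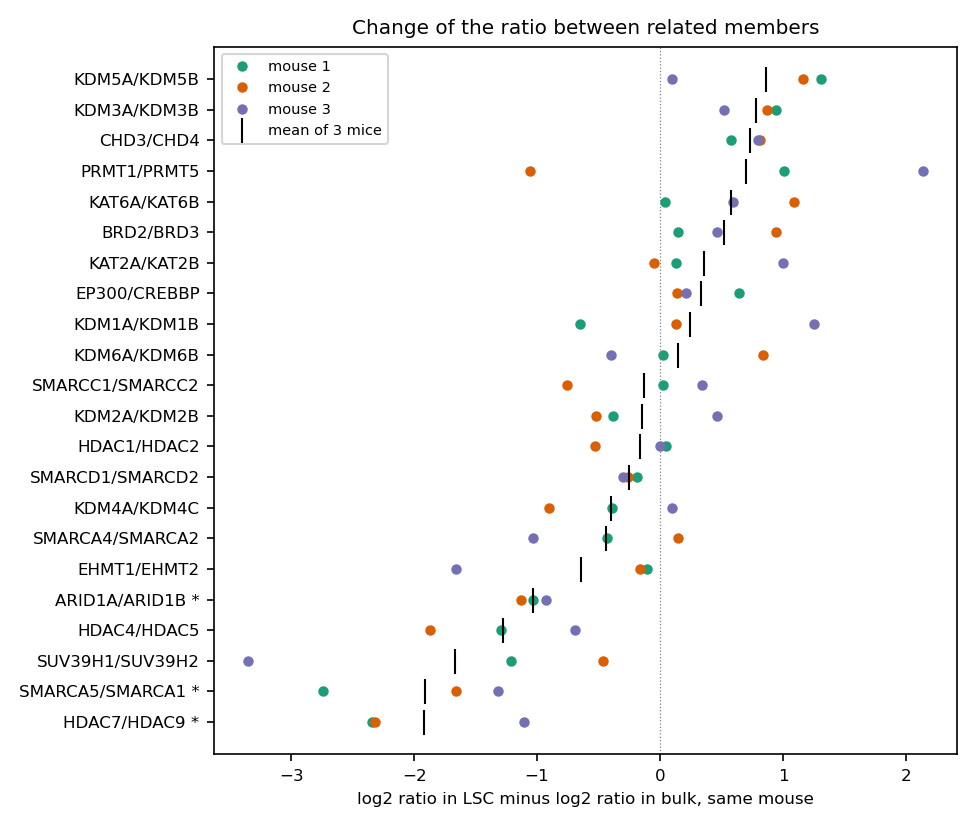
Log2 ratio of 2 related members in LSC minus the same ratio in bulk of the same mouse, for 22 pairs; points are mice and bars their mean, and an asterisk marks an adjusted p under 0.05 with the mouse as a block. The 3 points of ARID1A/ARID1B lie between -1.13 and -0.93, while those of SUV39H1/SUV39H2, on few reads, are widely spread.

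Libraries of the same mouse shared much of their variation. Over the 108 members 45.4% of the sum of squares of log2 CPM lay between mice, 37.2% between populations and 17.4% was left over. Over all genes tested the shares were 38.2%, 41.6% and 20.1%. These shares are not adjusted for the degrees of freedom, 2 for mice and 1 for populations. In 60 of 108 members (55.6%) the share between mice exceeded that between populations, against 8324 of all 13755 genes (60.5%). Among members it was largest in SMARCE1 (95.2%), CHD3 (94.0%) and BRD1 (91.5%). SMARCE1, a DNA-bending SWI/SNF subunit, had 61.5, 45.8 and 58.8 CPM in LSC and 58.2, 46.1 and 64.1 CPM in bulk, so each mouse had nearly the same level in both populations. At the other end, populations took 92.1% of the sum of squares of EHMT1, 91.6% of SMARCA4 and 91.5% of CHD1.

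**Figure D5:**
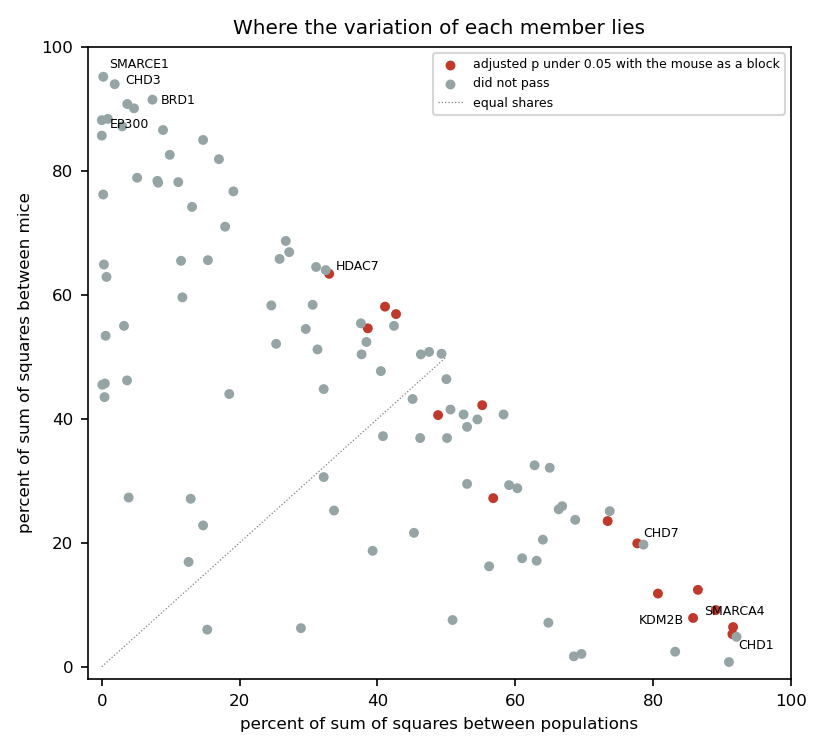
Share of each member's sum of squares of log2 CPM that lies between populations (x axis, percent) and between mice (y axis, percent), with 1 point per tested member and red for those past the threshold with the mouse as a block. SMARCE1, CHD3 and BRD1 lie at the top left, with 91.5% or more between mice, and SMARCA4 and CHD1 at the lower right.

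Partners of these enzymes outside the symbol rule, from 7 lists of complex subunits and related genes, had 127 tested members, of which 3 rose and none fell without the block (background 2.71% higher and 1.33% lower). At an unadjusted p under 0.05 there were 7 higher (5.51%, against 10.2% of all genes) and 18 lower (14.2%, against 10.1%). Voom on recovered reads called 3 higher and 0 lower. With the block 4 rose and 11 fell, 11.8% against 16.0% of all genes. BCL11A, a zinc finger protein reported in SWI/SNF and known as a factor of plasmacytoid dendritic and B cells, had 281, 233 and 264 CPM in LSC and 47.8, 38.9 and 86.8 CPM in bulk. It rose 4.75-fold (log2 change 2.25, SE 0.34, limma adjusted p = 0.00807) and passed with any 1 library left out. BCL11A separated the populations as the plasmacytoid dendritic cell markers did, whose part was not tested. SS18, a SWI/SNF subunit fused in synovial sarcoma, had 104, 191 and 134 CPM in LSC and 50, 62.9 and 50.8 CPM in bulk (change 1.35, SE 0.31, limma adjusted p = 0.0426). ELL, an elongation factor found as an MLL fusion partner, had 26.3, 11.2 and 16.4 CPM in LSC and 4.98, 3.83 and 1.24 CPM in bulk (change 2.56, SE 0.60, limma adjusted p = 0.0487). SS18 and ELL lost their calls without any 1 of the 6 libraries, with adjusted p up to 0.163. BCL11A and SS18 were the SWI/SNF partners that passed among 12 tested, and BCL7B followed with 0.91 (0.264).

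Other partner lists held falls with the block alone, a fit in which 7.71% of all genes fell and 8.25% rose. No list was tested as a set. In the 28 tested subunits of NuRD, SIN3 and CoREST, ING2, a reader of H3K4 methylation in SIN3, fell by 1.56 on the log2 scale and NCOR1, the nuclear receptor corepressor, by 0.87 (blocked limma adjusted p = 0.0275 and 0.0138). SIN3B had a change of -1.47 and did not pass. Of 13 partners of the H3K4 methyltransferases PSIP1, the chromatin tether of the KMT2A and menin complex, fell, at 274, 78.7 and 152 CPM in LSC and 433, 229.8 and 571 CPM in bulk (change -1.37, blocked limma adjusted p = 0.00892). DPY30 and PAXIP1 had changes of -1.37 and -0.55 without a call. In 29 acetyltransferase partners DMAP1 rose and BRPF3 fell with the block. The DMAP1 change of 2.08 was 1.13 without LSC of mouse 2, the only library above 5 CPM. MSL3 and TADA2B had 0.77 and 0.89 and did not pass. Of 22 ISWI and INO80 partners BAZ1A, BAZ1B, POLE3 and RSF1 fell, by 0.83, 0.82, 1.06 and 0.74 on the log2 scale. The DOT1L and MLL fusion partners MLLT10 and ELL2 had changes of -0.74 and -1.37 without a call. Among 12 other histone methylation genes WHSC1, PRDM2 and NSD1 fell. WHSC1, the H3K36 enzyme NSD2, had 59.1, 102 and 54.4 CPM in LSC and 155, 151 and 145 CPM in bulk (change -1.12, SE 0.31, limma adjusted p = 0.081, blocked 0.0152).

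The 4 non-coding symbols are named here after their values were seen. KDM4A-AS1, antisense to KDM4A, rose with the block, at 26.6, 83.8 and 46.9 CPM in LSC and 12, 34.9 and 23.7 CPM in bulk (change 1.13, blocked limma adjusted p = 0.0153), and KDM4A had a change of -0.57. No source here says whether counting used strand, so reads of this pair cannot be told apart with certainty. KMT2E-AS1, EHMT1-IT1 and BRD7P3 had changes of 0.06, 0.46 and 0.01. In the authors' deposited table, whose fold change is coded bulk minus LSC, 4 members had an unadjusted p under 0.05, against 12.4% of all genes, and the lowest false discovery rate of a member was 0.266. That table rests on the same libraries and is no separate support.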

How the data were processed

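RNA of sorted human leukemic cells from 3 mice was analysed in 6 libraries. It was amplified with a NuGEN Ovation kit, per the labels' protocols. RSEM, Bowtie2, edgeR and hg19 stand in the submitters' processing notes without version or role. The organism label is mouse, while symbols and build are human. The authors' deposited expression values are log2 CPM, floored at 0.0197 CPM. Beside them the authors deposited a log2 fold change, a likelihood ratio (a score) and a p-value with its false discovery rate. Steps in the low values returned reads that were whole within 0.1 in 100% of cases. Reads were amplified and carry no molecular identifiers, so they are not independent molecules.

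A gene was tested where 3 or more libraries reached 1 CPM (13755 of 13892 rows). The deposited log2 values went into limma 3.58.1 under R 4.3.3, with a trended prior, two-sided, and Benjamini-Hochberg adjustment over all genes tested. The ratio pairs went into limma without a trended prior, adjusted over the 22 pairs. The code was tested on simulated reads. Equal numbers mark the same mouse in the labels, and same-mouse libraries deviated together (correlations 0.33, 0.35 and 0.3 in mice 1, 2 and 3), so the fit with the mouse as a block is printed where it changes a call. Every pair of libraries differed by more than independent reads would (chi-square per degree of freedom 69.5 to 367). The reads are not independent, so this value cannot show a difference beyond sampling noise. Printed CPM are the deposited values taken out of the log.

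The members and all lists were chosen with earlier results of these data known. Named by rule are the 2 members per role class with the largest statistic, the 10 largest changes past the threshold with the block, the 3 largest shares between mice, the untested member, 8 AML genes or drug targets and up to 3 genes per partner list. A further gene that the rule names is not reported here. All others named were chosen after their values were seen. Alternatives were pseudocounts, filters, scalings, variance models, the block, voom, and leaving out libraries or mice. The table holds 21 symbols converted to dates, which were matched to no gene.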

Additional observations from a re-analysis of the deposited data

How the results depend on the processing

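The median change of the members stayed negative under every alternative run, at -0.37 to -0.19. The median over all genes moved too. It was -0.09 after centring on the library median, beside -0.37 for members, and 0.05 when scaled outside MTRNR2L, beside -0.23. The members' median minus that of all genes was -0.28 under both scalings and -0.28 with the deposited values. The members' share of variation between mice was 43.6% to 46.2% under the pseudocounts, filters and scalings run for it. Counts of calls did not hold. The replicate block by mouse gave 4 members higher and 11 lower, against 0 and 0 without it, and 11 partner genes lower, against 0. The mouse as a random effect gave 2 higher and 8 lower members, and 5 higher and 10 lower partner genes. Voom with the block gave 4 and 16 members and 6 and 18 partner genes. Without the block, members lower numbered 1 when scaled outside MTRNR2L, 2 with array weights, with centring on the library median and with pseudocounts of 0.1 and 5, 3 with a pseudocount of 1, a filter of 5 CPM and upper-quartile scaling, and 4 with quantile normalization. With the block and each scaling, members higher and lower were 2 and 18 after centring, 5 and 16 after quantile normalization, 6 and 8 outside MTRNR2L and 4 and 17 after upper-quartile scaling. Partner genes lower were then 21, 18, 10 and 18, and partner genes higher were 5 after quantile normalization and 5 outside MTRNR2L. On 2 mice each, the block gave 4 members lower without mouse 1, 2 without mouse 2, and 10 higher and 20 lower without mouse 3. Over all genes 5.31%, 5.38% and 24.1% passed in these 3 fits. The same fits gave 1, 1 and 21 partner genes lower, and 11 higher without mouse 3. The 3 partner genes higher without the block became 1 after centring, 1 without a trended prior, and 0 to 1 when a library or mouse was left out. Partner genes lower reached at most 1 (0 to 1) in those leave-outs. WHSC1 and ELL2 each passed in 1 of 6 leave-outs of a library. Of the 15 members called with the block, voom, quantile and upper-quartile scaling kept 15, centring 13, scaling outside MTRNR2L 12 and the random effect 9. By adjusted p, limma called 0 ratio pairs without the block and 3 with it. The populations did not overlap in 7 pairs. Leaving out mouse 1, 2 or 3 gave 11, 9 and 11 (range 9 to 11), counts that with fewer libraries can only stay or grow and so say nothing about stability. Among all genes, higher calls were 67.1% of calls without and 51.7% with the block. Of 1362 values of 44 named members under 31 settings, 40 changed sign, all in members near 0 without a call. SETD3 was -0.03 with array weights, -0.06 after centring or quantile normalization, with or without the block, -0.02 after upper-quartile scaling, -0.17 without mouse 1, and -0.22 to 0.28 with a library left out. SMARCE1 was 0.03 with array weights, 0.04 outside MTRNR2L, 0.03 without mouse 3, and -0.15 to 0.11 with a library left out. EP300 was -0.08 after centring, -0.04 after upper-quartile scaling, 0.00 with voom, -0.02 with voom and the block, -0.20 without mouse 1, and -0.22 to 0.39 with a library left out. HDAC2 was 0.01 without mouse 1 and -0.23 to 0.04 with a library left out, CHD3 0.00 without mouse 2 and -0.19 to 0.10, and BRD1 -0.03 to 0.50 with a library left out. The cause of these shifts was not tested. The depth of bulk of mouse 1 limits genes near 1 CPM.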
